A study of Rattus norvegicus with 8 samples.

Results

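The genes described here are 10 that set the level of the polyamines putrescine, spermidine and spermine, measured in the rat kidney that remained after removal of its partner. They were chosen by name. Every probe of the array that is no control and whose RefSeq accession belongs to 1 of the 10 genes was taken, which gave 13 probes for 9 of them. No probe was matched to Paox, the oxidase that returns acetylated polyamines to smaller ones, and it is not analysed here. The 9 genes were all tested, among 20910 features in all, a feature being a gene or, where a probe carries no matched symbol, its accession. Of the 13 probes, 12 were well above background on all 8 arrays. The exception was the dimmer probe of Smox, which was so on 2 of 4 nephrectomized and 3 of 4 sham arrays.

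The study set 4 right kidney samples taken after unilateral nephrectomy, the removal of 1 kidney, beside 4 right kidney samples taken after a sham operation. All came from F344/NSlc females aged 10 weeks. The design text puts sampling at 2 days after surgery, but by source name the nephrectomized kidneys are from day 2 and the sham kidneys from day 1. Should the source names hold, the effects of day and of operation cannot be told apart. No other treatment is named. The labels name no animals, so a kidney here means the sample on 1 array. The spread between kidneys may therefore be technical.

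Ornithine decarboxylase turns ornithine into putrescine, and the synthases add aminopropyl groups, donated by decarboxylated S-adenosylmethionine, to build spermidine and then spermine. An acetyltransferase and oxidases run the chain backwards. Antizymes bind ornithine decarboxylase and hand it to the proteasome, and an antizyme inhibitor sets it free again. The decarboxylase is known for its short life and for its induction in growing tissue, kidney included, and much of its control acts on translation and protein turnover, which an RNA array does not see.

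Each of the 8 RNAs was read on its own 1-colour array. The share of the 41012 probes well above background was 59.4% to 66.0%, no spot was saturated, and the 75th percentile of the signal lay between 388 and 643. The arrays lay on 2 slides with 2 nephrectomized and 2 sham arrays each, the nephrectomized at positions 3 and 4 and the sham at positions 1 and 2, so that position and group cannot be told apart. As to the tissue label, all 6 tested proximal tubule genes and all 6 tested genes of the loop, distal tubule and collecting duct were well above background on every array. None of the 3 matched adrenal markers was bright enough to be tested. Of these, Cyp11a1 was well above background on up to 2 of 4 nephrectomized and 1 of 4 sham arrays. Adipoq, a fat cell marker, was well above background on all 8 arrays. Between the groups, 3 of 6 tested leukocyte markers were lower after nephrectomy, against 0.287% of all features. Of the 4 tested cell cycle markers 1 was higher, against 0.751% of all features. The lists were chosen with earlier results of these data known, so these counts are a description and not a test. The list medians were -0.42 and 1.97 on the log2 scale. The 3 lower leukocyte markers were S100a8 (-1.69), S100a9 (-1.40) and Adgre1 (-0.51). Ptprc (-0.33), Cd68 (-0.11) and Csf1r (-0.050) did not pass, so the genes of the list differed among themselves. The mean log2 level of the leukocyte list was -1.56 to -1.42 in nephrectomized and -0.86 to -0.69 in sham kidneys. In bulk tissue, fewer cells of a type and less RNA per cell cannot be told apart.

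Upstream sequence is shown for Odc1, whose level varied most between kidneys, for 2 genes with the same letters near the same place, and for Srm, which had the largest estimated difference between the groups. Sequences come from RefSeq on build GRCr8, and 9 of the 10 genes had an entry, Azin1 being named only. In the 250 bases before the gene's start, TATAA on either strand was found in 3 of the 9 genes and in 24.0% of 33469 promoters of that length. The 3 are Odc1, Amd1 and Oaz1, each with TATAA on the gene's own strand between 28 and 32 bases before the start. The share of all promoters with TATAA on that strand at that distance was not computed. The 30-base stretches follow, 5′ to 3′ on the gene's strand, with TATAA in capitals. They lie at chr6:46058621-46058650 on the plus strand for Odc1, at chr20:45265994-45266023 on the minus strand for Amd1 and at chr7:9537001-9537030 on the minus strand for Oaz1.
Odc1: acgtgctccgccTATAAgtagcggcgcgtc
Amd1: ggaggatgcttaTATAAagtctgcgctcac
Oaz1: agtgacgacgcaTATAAaagtgggcgtcgg

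Srm has no TATAA in that window. It carries CACGTG, the palindrome known as the E-box of Myc and its relatives, which was found in Srm and Oaz1 alone among the 9 genes and in 5.59% of all promoters. Its 250 bases at chr5:164308752-164309001, plus strand, are given with CACGTG and with GGGCGG or its reverse complement in capitals. GGGCGG, read on both strands, occurred in 8 of the 9 genes and in 30.5% of all promoters. No matches overlap in this stretch, and a match describes letters, not a bound site.
Srm: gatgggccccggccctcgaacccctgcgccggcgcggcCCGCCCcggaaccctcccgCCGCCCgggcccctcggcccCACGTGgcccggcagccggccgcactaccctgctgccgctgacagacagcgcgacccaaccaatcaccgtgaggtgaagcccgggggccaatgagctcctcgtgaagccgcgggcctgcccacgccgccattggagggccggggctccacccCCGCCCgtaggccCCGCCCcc

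None of the 9 polyamine genes passed the threshold between nephrectomized and sham kidneys, with limma's Benjamini-Hochberg adjusted p over all features. Their estimated changes ran from -0.11 for Sms to 0.18 for Srm on the log2 scale, with a median of -0.020, against a median of 0.0088 over all features. Of all features 1.04% were called, 0.751% higher and 0.287% lower in nephrectomized kidneys, so a count of 0 in 9 does not differ from that background. At an unadjusted p under 0.05 there was 1 member, Srm, against 16.0% of all features. The genes differed among themselves in spread: the SD between kidneys of 1 group was 0.576 for Odc1 and 0.042 to 0.14 for the other 8 genes (log2).

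**Figure D1:**
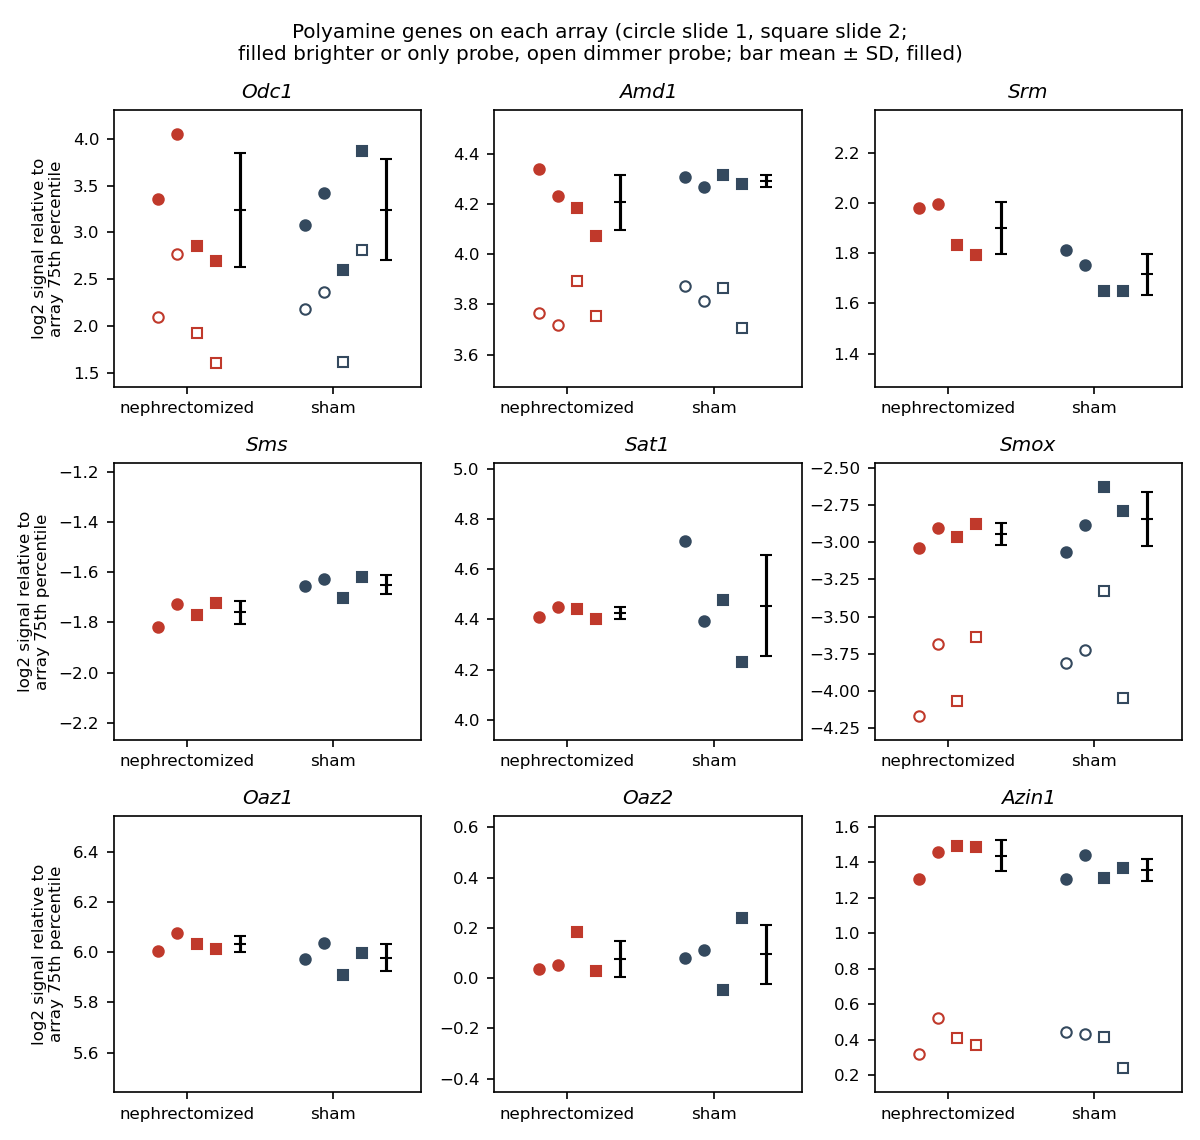
Each panel is 1 gene, with its log2 signal relative to the array's 75th percentile on the vertical axis (ranges differ between panels) and the 4 nephrectomized arrays left of the 4 sham arrays. Filled points are the brighter or only probe, open points the dimmer probe, circles slide 1, squares slide 2, and bars the mean ± SD of the filled points. Odc1 spreads widely in both groups on both probes, and the groups separate only for Sms.

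Odc1 (NM_012615), ornithine decarboxylase, starts the pathway. Its log2 signal relative to the array's 75th percentile was 3.36, 4.05, 2.86 and 2.70 in nephrectomized kidneys, replicates 1 to 4, against 3.08, 3.42, 2.60 and 3.88 in sham kidneys. The highest value belonged to a nephrectomized kidney and the next to a sham kidney, the lowest to a sham kidney, and the groups overlapped over nearly their whole range. The means were 3.24 ± 0.61 in nephrectomized and 3.24 ± 0.54 in sham kidneys (SD, n = 4 each). On the processed signal itself the values ran from 2520 to 7577 in nephrectomized and from 2784 to 8249 in sham kidneys.

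The change in Odc1 was -0.0036 ± 0.35 (SE, log2; limma adjusted p = 0.998), with a 95% interval from a 0.575-fold to a 1.73-fold level in nephrectomized over sham kidneys. An induction or a loss within those bounds was not detectable with 4 kidneys a group. On slide 1 the nephrectomized kidneys were 0.45 above the sham ones, on slide 2 they were 0.46 below, at 2 kidneys a group on each. The second probe of Odc1 had log2 values of 2.10, 2.77, 1.93 and 1.61 in nephrectomized kidneys, against 2.19, 2.36, 1.62 and 2.82 in sham kidneys. Nephrectomized replicate 2 and sham replicate 4 were again the highest, and its change was -0.14 ± 0.30 (SE; adjusted p = 0.865 with every probe tested on its own). Over the 8 arrays the probes had a Pearson r of 0.97 (exact permutation p = 0.000322) and a Spearman rho of 0.93 (exact permutation p = 0.00223).

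The spread of Odc1 was large for this array. The highest over the lowest signal was 2.55-fold among nephrectomized and 2.42-fold among sham kidneys, and 2.25-fold and 2.30-fold on the second probe. Its residual SD, the spread between kidneys of 1 group, was 0.576, 4.37 times the median of 0.132 over all features, and larger than that of 96.7% of them. Among the 1216 features whose mean level lay within 0.5 of that of Odc1 on the log2 scale it was larger than 99.3%. Without nephrectomized replicate 2 the SD in that group was 0.344, against 0.609 with it. Measures of the arrays themselves were set against Odc1 over the 8 arrays, as 2 relations: Odc1 and the log2 of the array's 75th percentile had an r of 0.31 (exact permutation p = 0.457) and a rho of 0.31 (exact permutation p = 0.462), and Odc1 and the share of probes above background an r of -0.23 (exact permutation p = 0.602) and a rho of -0.14 (exact permutation p = 0.752).

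**Figure D2:**
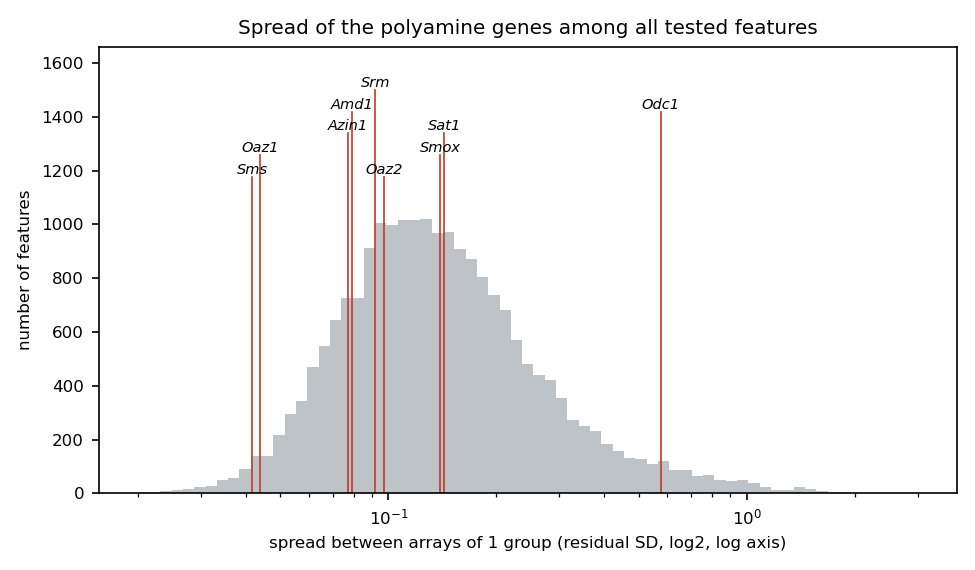
The grey histogram counts the 20910 tested features by the SD between kidneys of 1 group, in log2 units on a log axis. Red lines mark the 9 polyamine genes, with Sms and Oaz1 at the narrow end and Odc1, at 0.576, alone at the wide end.

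Amd1 (NM_031011) encodes S-adenosylmethionine decarboxylase, which makes the aminopropyl donor. Its brighter probe had log2 values of 4.34, 4.23, 4.19 and 4.07 in nephrectomized kidneys, against 4.31, 4.27, 4.32 and 4.28 in sham kidneys. The sham kidneys lay within 0.050 of each other, and 3 of the 4 nephrectomized ones lay below all of them while replicate 1 lay above. The change was -0.086 ± 0.066 (SE, limma adjusted p = 0.567), with a fold between 0.849 and 1.05, and the second probe was at -0.032. On that probe the sham kidneys lay within 0.16 of each other, and no nephrectomized kidney lay below all of them.

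Srm (NM_053464), spermidine synthase, had the largest estimate of the family. Its log2 values were 1.98, 2.00, 1.83 and 1.79 in nephrectomized kidneys, against 1.81, 1.75, 1.65 and 1.65 in sham kidneys. Within each slide both nephrectomized kidneys were above both sham kidneys. The share of all features with that pattern was not computed. Over both slides the groups overlapped only between nephrectomized replicate 4 and sham replicate 1. The difference was 0.18 ± 0.071 (SE, log2), a fold of 1.14 with a 95% interval of 1.01 to 1.27, and it did not pass (unadjusted p = 0.0315, limma adjusted p = 0.260). With slide as a block the unadjusted p was 0.00692 and the adjusted p 0.140, and the difference was 0.21 on slide 1 and 0.16 on slide 2. The 4 tested cell cycle markers had every nephrectomized kidney above every sham kidney, as did 7.06% of all features. Their mean log2 level was -0.85 to 1.16 in nephrectomized and -1.91 to -1.41 in sham kidneys. All 4 were highest in nephrectomized replicate 4, where Srm was lowest of its group, and next in replicate 2, where Srm was highest. Their part in the Srm difference was not tested.

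Sms (NM_001033899) encodes spermine synthase, the last step upward. It had log2 values of -1.82, -1.73, -1.77 and -1.72 in nephrectomized kidneys, against -1.65, -1.63, -1.70 and -1.62 in sham kidneys. It was the only member whose groups did not overlap, all nephrectomized kidneys being lower, set beside 11.1% of all features without overlap, 7.06% with the nephrectomized higher and 4.07% with them lower. The change was -0.11 ± 0.052 (SE; adjusted p = 0.353), a fold between 0.854 and 1.01. It rests on a dim probe, with processed signals from 118 to 142 in nephrectomized and from 141 to 204 in sham kidneys. These signals are not scaled between arrays. With normexp background correction the change in Sms was -0.046.

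Sat1 (NM_001007667), the acetyltransferase that marks spermidine and spermine for export or oxidation, had log2 values of 4.41, 4.45, 4.44 and 4.40 in nephrectomized kidneys, against 4.71, 4.39, 4.48 and 4.23 in sham kidneys. The nephrectomized kidneys all lay inside the sham range and lay within 0.051 of each other, the sham kidneys within 0.48. The change was -0.028 ± 0.097 (SE; adjusted p = 0.923), a fold between 0.841 and 1.14.

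Smox (NM_001134854) encodes spermine oxidase, which turns spermine into spermidine with release of hydrogen peroxide. Its brighter probe had log2 values of -3.04, -2.90, -2.97 and -2.87 in nephrectomized kidneys, against -3.07, -2.88, -2.63 and -2.79 in sham kidneys. The groups overlapped on this scale, and the change was -0.10 ± 0.095 (SE, limma adjusted p = 0.640). The processed signals were dim, between 52.9 and 62.2 on the nephrectomized and between 73.8 and 81.3 on the sham arrays. These signals are not scaled between arrays. The arrays' 75th percentile was itself between 388 and 497 for nephrectomized and between 460 and 643 for sham kidneys. The second probe was at -0.16 ± 0.17 (SE), and normexp gave 0.081 for the brighter one, so no direction can be read for Smox.

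Among the regulators of the decarboxylase, Oaz1 (NM_139081) encodes antizyme 1, whose translation needs a ribosomal frameshift that polyamines promote. It had log2 values of 6.01, 6.08, 6.03 and 6.01 in nephrectomized kidneys, against 5.97, 6.04, 5.91 and 6.00 in sham kidneys. The values lay within 0.070 of each other in nephrectomized and within 0.13 in sham kidneys, and the residual SD of 0.0440 was larger than that of 1.94% of features. The change was 0.054 ± 0.052 (SE; adjusted p = 0.662), a fold between 0.955 and 1.13.

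Oaz2 (NM_001109899), a second antizyme, had log2 values of 0.038, 0.053, 0.18 and 0.027 in nephrectomized kidneys, against 0.081, 0.11, -0.048 and 0.24 in sham kidneys. Nephrectomized replicate 3 stood apart from the other three of its group but inside the sham range. The change was -0.020 ± 0.074 (SE; adjusted p = 0.928).

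Azin1 (NM_022585) encodes antizyme inhibitor 1, a relative of the decarboxylase that binds antizyme without making putrescine. Its brighter probe had log2 values of 1.30, 1.46, 1.49 and 1.48 in nephrectomized kidneys, against 1.31, 1.44, 1.31 and 1.37 in sham kidneys. In the nephrectomized group 3 kidneys were above every sham kidney. Replicate 1, at 1.304, was about level with the lowest sham kidneys, at 1.306 and 1.307. The change was 0.079 ± 0.065 (SE, limma adjusted p = 0.594), a fold between 0.953 and 1.17, and the second probe was at 0.024 ± 0.072 (SE). On that probe only nephrectomized replicate 2, at 0.52, was above every sham kidney. Replicate 1, at 0.32, lay inside the sham range of 0.24 to 0.44 there.

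Genes that supply, use and move polyamines gave a count of 0 as well. Of 31 genes in 5 lists, 27 were on the array, 23 were tested and 0 passed over all features. Of all features 1.04% were called, so a count of 0 in 23 does not differ from that background. There were 12 estimates above and 11 below 0, with a median of 0.030. At an unadjusted p under 0.05 there were 3 of the 23, no larger a share than the 16.0% of all features, and they are named here after their values were seen. Agmat, which makes putrescine from agmatine, was at -0.30 ± 0.10 (SE; adjusted p = 0.213). Mat1a, the liver form of the enzyme that makes S-adenosylmethionine, was at -0.47 ± 0.18 (SE; adjusted p = 0.259) on a probe well above background on 2 of 4 nephrectomized and 3 of 4 sham arrays. Atp13a2, a lysosomal polyamine exporter, was at -0.15 ± 0.052 (SE; adjusted p = 0.211), with log2 values of -0.30, -0.29, -0.28 and -0.32 in nephrectomized kidneys, against -0.07, -0.17, -0.16 and -0.19 in sham kidneys, so that its groups did not overlap, as was so for 11.1% of all features.

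By list, 6 of 6 genes of ornithine and arginine were tested, with a median of -0.030. Its brightest members were Oat, which interconverts ornithine and glutamate semialdehyde, at -0.10 ± 0.21, and Gatm, which makes guanidinoacetate from arginine and releases ornithine, at 0.34 ± 0.24 (SE). Of S-adenosylmethionine supply and methionine salvage 7 of 8 were tested, with a median of -0.049, Mri1 at -0.08 ± 0.10 and Apip at 0.050 ± 0.055 (SE), both enzymes of the salvage path. Of the other catabolic genes and antizymes only Sat2, at 0.087 ± 0.067 (SE), was bright enough. Aoc1, diamine oxidase, and Satl1 were not well above background on any array. The hypusine list, whose enzymes put a spermidine-derived side chain on the translation factor eIF5A, had 3 of 4 tested, with Eif5a at 0.043 ± 0.11 and Dhps at 0.030 ± 0.062 (SE). Of the transporters 6 of 9 were tested, with a median of -0.11, and Slc3a2, a subunit of amino acid transporters, was at 0.090 ± 0.10 (SE).

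**Figure D3:**
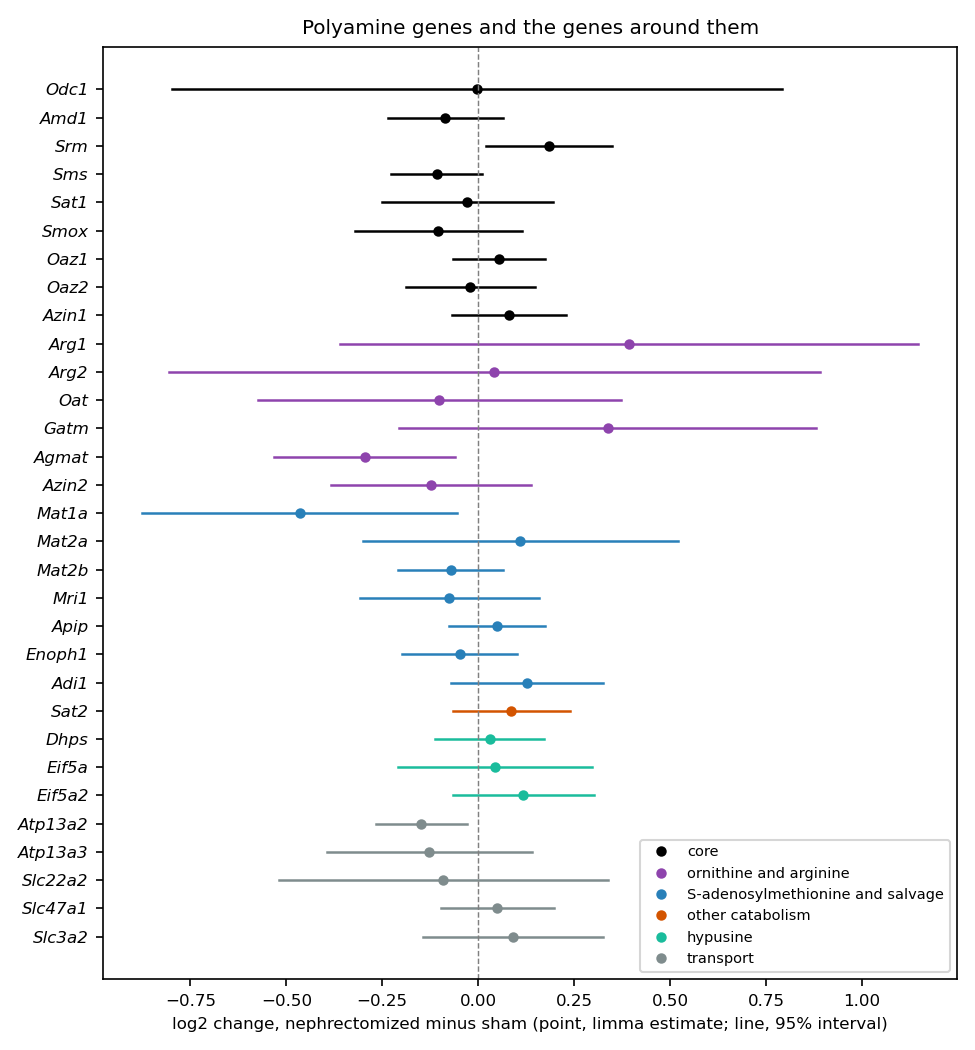
Points are limma's log2 changes, nephrectomized minus sham, and lines their 95% intervals, for the 9 tested polyamine genes (black) above tested genes of the other lists (colours, 1 transporter not shown). Odc1, Arg1 and Arg2 have the widest intervals among the core and ornithine genes, and the intervals of Srm, Agmat, Mat1a and Atp13a2 leave out 0 before adjustment.

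Odc1 was set against the other genes over the 8 kidneys to see what varied with it. The 5 features with a symbol most like it, by Pearson r of log2 values over the 8 arrays, were Ppfia4 (0.97), Fam118a (0.97), Arhgap28 (0.96), Sema3d (0.95) and Prkar2b (0.95). They were picked as the highest r among all features and are given as a description. Ppfia4, a liprin, had log2 values of -1.60, -1.11, -2.20 and -2.48 in nephrectomized kidneys, against -2.12, -1.96, -2.54 and -1.37 in sham kidneys. It ranked the 8 kidneys as Odc1 did but for nephrectomized replicate 1 and sham replicate 2, which traded places. Prkar2b, a regulatory subunit of protein kinase A, had log2 values of -2.12, -1.94, -2.51 and -2.70 in nephrectomized kidneys, against -2.46, -2.42, -2.85 and -1.88 in sham kidneys.

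The other polyamine genes had an r with Odc1 from -0.37 for Sat1 to 0.60 for Oaz1. Outside the core, the genes of the pathway and marker lists with an unadjusted Pearson p under 0.05 are named, a choice made after their values were seen. Mat2a, which makes S-adenosylmethionine outside the liver, had an r of 0.86 with Odc1 (exact permutation p = 0.00682) and a rho of 0.81 (exact permutation p = 0.0218). Arg2, the mitochondrial arginase that yields ornithine, had an r of 0.82 (exact permutation p = 0.0133) and a rho of 0.81 (exact permutation p = 0.0218). Arg1, the cytosolic arginase, had an r of 0.81 (exact permutation p = 0.0164) and a rho of 0.74 (exact permutation p = 0.0458). Slc7a13, a transporter of acidic amino acids and cystine that marks the straight part of the proximal tubule, had an r of 0.85 (exact permutation p = 0.00632) and a rho of 0.83 (exact permutation p = 0.0154). Markers of other segments were among them too. Umod, uromodulin of the thick ascending limb, had an r of 0.74 (exact permutation p = 0.0292) and a rho of 0.86 (exact permutation p = 0.0107), the highest rho of the 66 relations computed. Nphs1, nephrin of the podocyte, had an r of -0.78 (exact permutation p = 0.0283) and a rho of -0.83 (exact permutation p = 0.0154). Cidec, a lipid droplet gene on the fat cell list, had an r of 0.88 (exact permutation p = 0.00521) and a rho of 0.83 (exact permutation p = 0.0154).

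Of the 66 relations with genes of the lists, 0 passed after Benjamini-Hochberg adjustment of the Pearson p (0.150 for Mat2a, Slc7a13 and Cidec, 0.216 for Arg1 and Arg2, 0.275 for Umod and Nphs1, exact permutation). Without nephrectomized replicate 2 and sham replicate 4, which are farthest from the Odc1 median, r was 0.46 for Mat2a, 0.35 for Arg1, 0.68 for Arg2, 0.78 for Slc7a13, 0.76 for Umod and -0.46 for Nphs1. Both kidneys are at the top of the Odc1 range, at 4.05 and 3.88. Leaving them out narrows that range, which can lower r, though for Umod r was not below its 0.74 on all 8 arrays. What changed r here was not tested. Without nephrectomized replicate 2 alone r was 0.76 for Mat2a and 0.69 for Arg1, and without sham replicate 4 alone 0.82 for Mat2a and 0.76 for Arg1. Within the slides, at 4 kidneys each, r was 0.98 and 0.97 for Mat2a, 0.78 and 0.94 for Arg1, 0.73 and 0.80 for Arg2, 0.78 and 0.85 for Slc7a13, 0.78 and 0.59 for Umod and -0.89 and -0.73 for Nphs1. For comparison, 1.56% of all features had an r of at least 0.8 with Odc1.

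The levels behind these values show the same kidneys at the top. Arg2 had log2 values of 2.01, 2.40, 1.94 and 0.76 in nephrectomized kidneys, against 1.92, 1.66, 1.09 and 2.28 in sham kidneys. Slc7a13 had log2 values of 4.57, 4.91, 4.02 and 2.42 in nephrectomized kidneys, against 4.15, 4.01, 3.09 and 4.82 in sham kidneys. For Odc1, Mat2a, Arg1, Arg2 and Slc7a13 the highest kidney was nephrectomized replicate 2 and the next was sham replicate 4, and neither Slc7a13 (-0.036 ± 0.56, SE; adjusted p = 0.984) nor Arg2 (0.042 ± 0.37, SE; adjusted p = 0.972) differed between the groups by more than the spread between kidneys. The other 5 tested proximal tubule markers had an r with Odc1 from -0.30 to 0.24 on all 8 arrays (adjusted p = 0.935 for each, exact permutation). Without nephrectomized replicate 2 and sham replicate 4, however, r was 0.91 for Lrp2, 0.83 for Slc5a2, 0.81 for Cubn and 0.56 for Slc34a1, and -0.16 for the fifth, so that Slc7a13 did not stand alone on the remaining 6 arrays. Within slide 1 these 5 had an r from -0.98 to -0.45, and within slide 2 from -0.012 to 0.95. How the part of the kidney sampled or the proximal straight tubule bears on Odc1 was not tested.

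**Figure D4:**
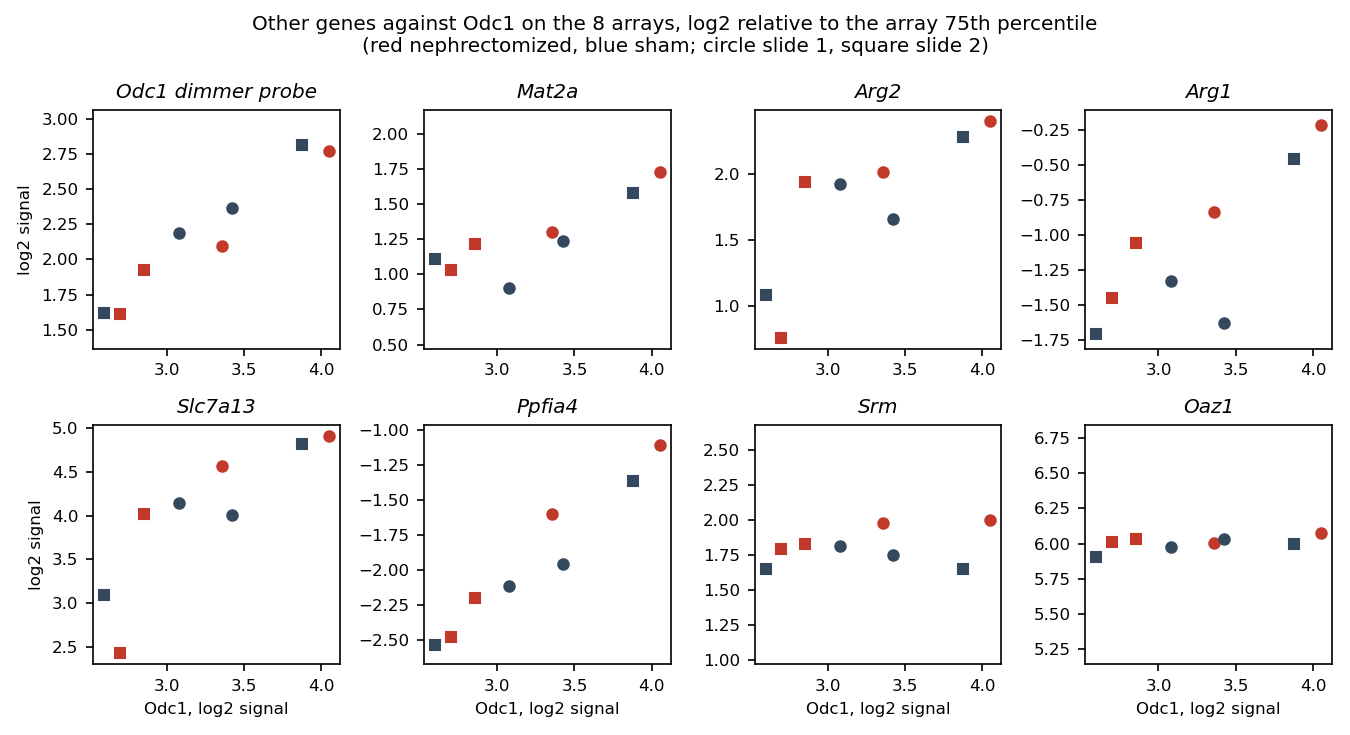
Each panel sets the log2 signal of 1 probe or gene (vertical) against that of Odc1 (horizontal) on the 8 arrays, both relative to the array's 75th percentile, with nephrectomized kidneys in red, sham in blue, circles for slide 1 and squares for slide 2. The second Odc1 probe and Ppfia4 run close to a line with kidneys of both groups mixed along it. Srm and Oaz1 look nearly level because their values cover a narrow range, and their r with Odc1 was 0.33 and 0.60.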

How the data were processed

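Total RNA was labelled with Cy3 and hybridised to 1-colour arrays, per the labels' protocols, and the authors deposited 1 scanner file per array. Per the file headers the scanner software was Agilent Feature Extraction 10.5.1.1, and its processed signal is an intensity from which background was subtracted, with spatial detrending but no scaling across arrays. The raw median intensity of spot and background served 1 alternative. The deposited series table holds log2 values, undescribed by the labels. Centred per probe, the scanner values matched them at an r of 0.999997 or more and a slope of 1.00, in the same direction, with column medians between -0.0145 and 0.0153.

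From the processed signal, log2 values minus each array's 75th percentile were computed here. Of 45018 spots, 1639 control spots were left out, as were spots marked as outliers, and spots of 1 probe averaged. Probes well above background on at least 4 of 8 arrays with a value on every array (25197) were kept, named by RefSeq accession through a table of assembly GRCr8 (18713 of 41012 probes matched), and the brightest probe stood for a gene. Headers name another assembly for the design, so array coordinates are not used. The 2 groups were then tested in R 4.3.3 by limma 3.58.1, without covariates (residual degrees of freedom 6, prior 2.37), with Benjamini-Hochberg adjustment over 20910 features and a threshold of 0.05. Relations were tested by two-sided exact permutation over 40320 pairings. Steps were tested on simulated data.

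Named are all members, per other list the genes past the threshold or else the 2 brightest, and the 5 features most like Odc1. For 1 gene of the transport list the values are not reported here. Members and lists were chosen with earlier results of these data known. As the labels name no animals, the p-values cover the spread of these samples, which may be technical, and the number of arrays limits the precision. Alternatives covered background, normalization, filter, probe choice, variance model, blocks, the series table and each array left out in turn. For normexp (offset 50) the median spot signal was used in place of the intended mean.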

Additional observations from a re-analysis of the deposited data

Results flagged for a closer look

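In Oaz2, which encodes an antizyme, 1 nephrectomized kidney lay far from the other three. The gap between replicate 3, at 0.18 on the log2 scale, and its nearest neighbour was 0.836 of the group's whole range, above Dixon's 95% critical value for 4 samples. The other 17 groups of 4, over 9 genes, had no such sample, and chance alone flags about 1 in 20 groups. Dixon's test reads a sample against its own group's narrow range, and the value lay inside the sham range.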

How the results depend on the processing

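No polyamine gene and no gene of the 5 pathway lists around them passed under any of the 23 other settings run. Over all features, counts higher and lower were 157 and 60, against 17 and 3 without a filter on dim probes, 295 and 99 with probes above background on all 8 arrays, 399 and 132 with trend and robust variance, 386 and 118 with array weights, 69 and 31 with slide as a block, and 0 and 0 on slide 1 or slide 2 alone (unadjusted p under 0.05 in 1884 and 1741 features, limma). With the replicate number as a block they were 6 and 4. The values gave no sign that the numbers pair the samples. Same-numbered kidneys had correlations of deviations of 0.14, 0.012, -0.056 and -0.21, and differently numbered ones ranged from -0.21 to 0.24. So few correlations cannot exclude a pairing. The block changed no call of a polyamine gene. Leaving out 1 array gave 18 to 162 higher and 4 to 35 lower. Signs of uncalled changes turned with normexp for Smox (0.081), Oaz1 (-0.082) and Oaz2 (0.012), with array weights for Sat1 (0.015), on slide 1 for Odc1 (0.45) and Smox (0.0026), and on slide 2 for Sat1 (0.067) and Oaz2 (0.010). Leaving out 1 array, Odc1 lay between -0.27 and 0.21, Sat1 between -0.10 and 0.058 and Oaz2 between -0.068 and 0.027. Srm stayed between 0.15 and 0.22 under every alternative, with adjusted p from 0.140 to 0.691. The cause of these shifts was not tested.

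Over both slides, the SD of Odc1 ranged from 0.344 to 0.739 in nephrectomized and from 0.400 to 0.648 in sham kidneys. Its relation to Arg1, chosen after seeing the data, missed an unadjusted exact permutation p of 0.05 under 3 of 16 alternatives, and r there lay between 0.69 and 0.96 over all of them. Dim probes limit Smox and Sms.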

Other observations

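The fat cell list had 2 tested genes. Cidec had a Pearson r of 0.88 with Odc1 over the 8 kidneys (exact permutation p = 0.00521, adjusted p = 0.150 over 66 relations) and a rho of 0.83 (exact permutation p = 0.0154). Without nephrectomized replicate 2 and sham replicate 4 its r was 0.75, and within the slides it was 0.69 and 0.94. Its probe was well above background on 2 of 4 nephrectomized and 2 of 4 sham arrays. Adipoq, well above background on all 8 arrays, had an r of 0.029 (exact permutation p = 0.943, adjusted p = 0.953) and a rho of 0 (exact permutation p = 1), and an r of -0.049 without those arrays. It lay between -0.38 and -0.064 in nephrectomized and between -0.41 and -0.013 in sham kidneys.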
